A study of Drosophila melanogaster with 12 samples.

Results

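Male tko25t flies were compared with virgin female tko25t flies, both 1 day old and taken as whole animals, on 6 of the 12 arrays of the series (3 of each sex), chosen by the genotype and sex in their labels. The males carried tko25t on their single X chromosome and the females on both, since tko, the gene of mitochondrial ribosomal protein S12, is X-linked. Both sexes were the F1 offspring of tko25t homozygous Canton S virgin mothers and tko25t Oregon R fathers, so that every mutant fly also had a mutant mother, after more than 10 generations of backcrossing of the allele into each strain. The 3 wild-type male and 3 wild-type virgin female arrays, used only to ask whether the sexes differed otherwise without the mutation, held same-aged F1 flies from crosses of Canton S females with Oregon R males. Each array was hybridised with RNA pooled from 40 males or 30 females of 1 of 3 independent crosses, so a replicate is a pool and not a fly. tko25t is a point mutation in a mitoribosomal protein, and flies that carry it are slow to develop, seizure-prone under mechanical stress and short of the respiratory enzymes that need mitochondrial translation. The array, an Affymetrix Drosophila Genome 2.0, measures transcripts with sets of short probes, and its signals are in arbitrary units scaled to a common mean on each array.

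In Drosophila the number of X chromosomes sets whether Sex-lethal is made, and Sex-lethal sets the splicing of transformer, which makes the female forms of doublesex and fruitless in females and leaves the male forms in males. Males raise the output of their single X through the MSL complex, whose limiting subunit, male-specific lethal 2, is kept off in females by Sex-lethal. Most of the difference between adult sexes in whole flies lies in the gonads and reproductive tract. The testis transcribes a large set of genes found nowhere else, among them duplicates of housekeeping genes, the accessory glands make seminal proteins, the ovary packs the egg with maternal RNA and eggshell proteins, and the female fat body makes yolk.

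The markers of the reproductive organs were highest in the labelled sex, though not all were confined to it. Summed over 13 measured accessory gland markers, the female arrays held 7.98%, 1.06% and 0.471% of the mean male signal (female replicates 1, 2 and 3). Over 16 testis markers they held 5.48%, 1.79% and 1.22%. Female replicate 1 thus stood apart from the other females in carrying male reproductive transcripts, and it was the highest of the 3 females for all 12 genes with the largest excess in males. Over 13 follicle cell markers the male arrays held 0.482%, 0.359% and 0.240% of the female signal, and over the 3 yolk protein genes 0.799%, 0.246% and 0.676%. The 2 measured ejaculatory bulb markers stood at 39.1%, 22.5% and 29.8% of the male mean in the females. Most of that female signal came from EbpIII. The other marker, EbpII, gave only 523, 67.2 and 10 in the females, against 7883, 8157 and 5763 in the males. The 7 ovary germline markers stood at 54.4%, 60.0% and 48.7% of the female mean in the males, most of it from exu, without which the males held 4.57%, 5.27% and 5.75%. Female replicate 2 was the highest female in germline markers (121% of the female mean without exu, against 80.1% and 99.0%) and the lowest in muscle markers (46.3% of the male mean, against 94.3% and 81.1%). The 3′ over 5′ signal ratio of the actin control probe sets was 2.65 to 3.26 in males and 1.77 to 1.96 in females, and the same order was seen in wild-type flies (2.19 to 3.01 in males and 1.71 to 1.89 in females). Its part in the differences below was not tested.

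**Figure D1:**
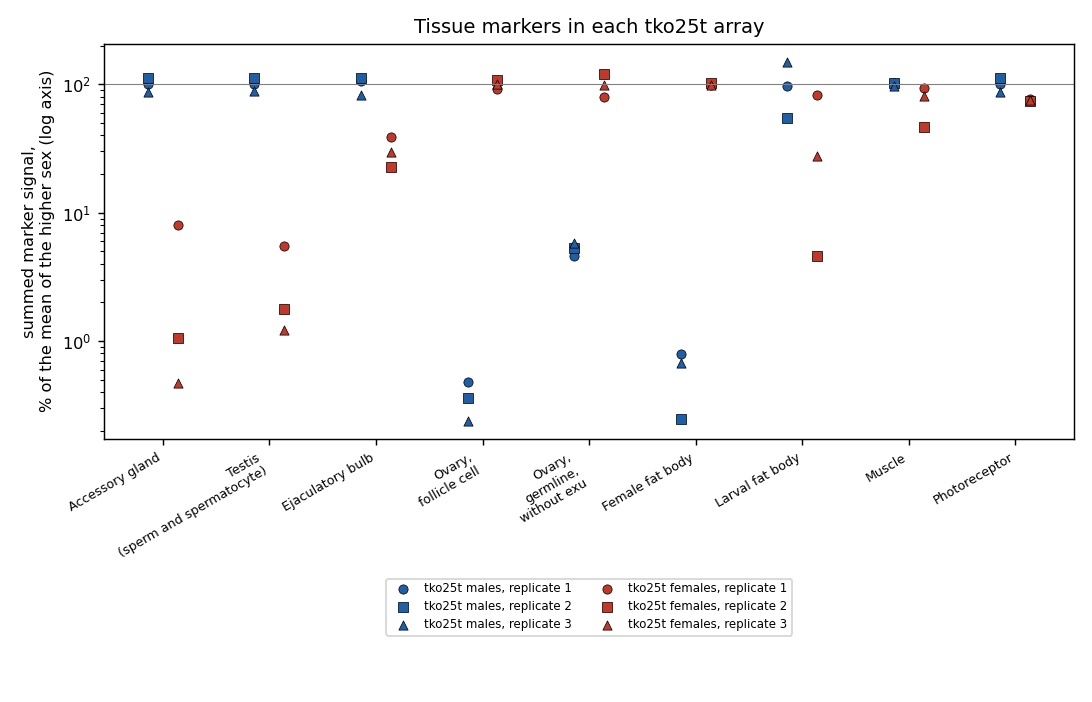
Summed signal of tissue marker genes in each of the 6 tko25t arrays, as a percentage of the mean of the sex in which the sum was higher (log axis), with males in blue left of females in red and 1 symbol per replicate. Accessory gland, testis, follicle cell and yolk markers separate the sexes, female replicate 1 (red circle) lies above the other females for accessory gland (7.98%) and testis (5.48%) markers, and female replicate 2 (red square) is lowest for muscle (46.3%).

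The sexes of tko25t flies differed across much of the array, with more transcripts lower than higher in males but larger differences among those that were higher. Of 18769 probe sets, 3135 (16.7%) were higher in males and 4594 (24.5%) lower in males at an adjusted p below 0.05 in limma, and 8955 had an unadjusted p below 0.05. The median log2 difference, males minus females on log2(signal + 11.6), was 1.59 among those higher in males and -0.96 among those lower. A difference of more than 2 on this scale, which is at least 4-fold and understates the change of weak signals, was reached by 1317 probe sets higher in males (7.02%) and 515 lower in males (2.74%), and a difference of more than 6 by 21 and 26. In 51.5% of probe sets the 3 male and 3 female values did not overlap. Counted by gene, with the brightest probe set standing for each of 11981 genes, 22.3% were higher in males and 30.9% lower (53.3% in either direction), and these are the shares against which the gene groups below are to be read. The split depends on the scale: with each array centred on its median, the median of all probe sets moved to -0.26 from -0.04, and 2432 probe sets were called higher and 6071 lower, so that 28.6% of calls were higher in males and not 40.6%. In whole flies a lower level of a transcript in 1 sex can mean fewer cells of a type or less RNA per cell, and these cannot be told apart.

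**Figure D2:**
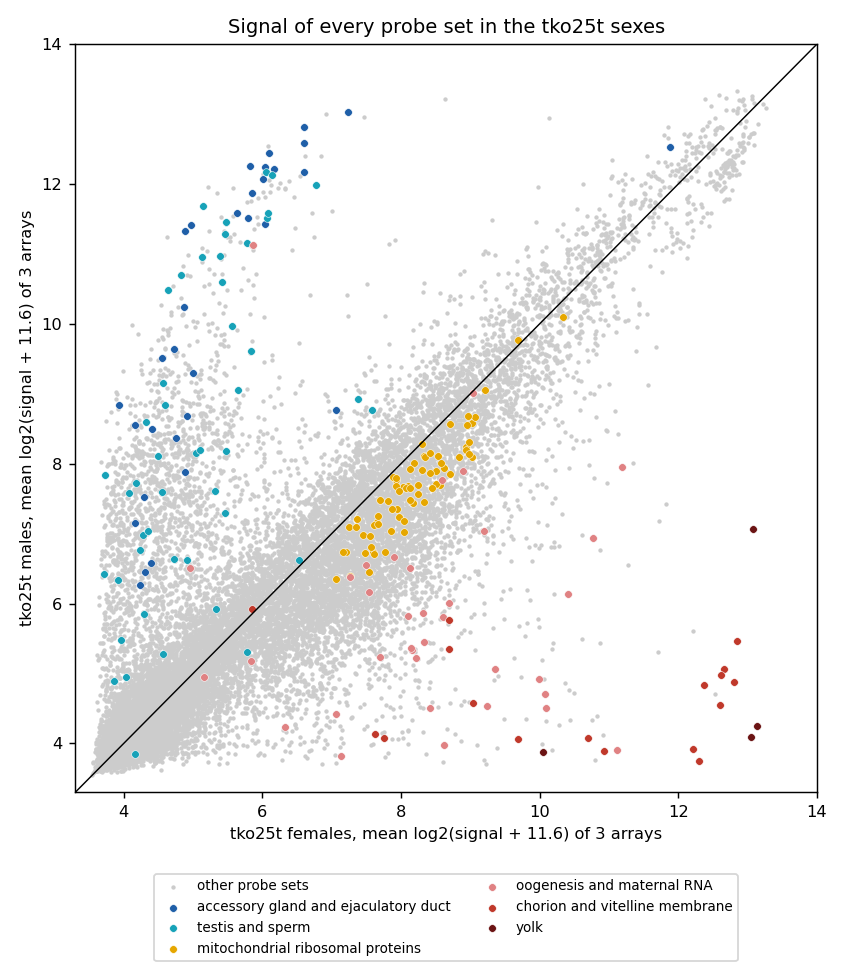
Mean log2(signal + 11.6) of each of 18769 probe sets in tko25t males (vertical axis, 3 arrays) and tko25t females (horizontal axis, 3 arrays), with 6 gene groups coloured and the line of equal signal in black. Accessory gland and testis genes lie far above the line, yolk, eggshell and most maternal genes far below it, and mitochondrial ribosomal protein genes just below it.

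Seminal fluid genes gave the list with the highest median. All 32 measured genes of the accessory gland and ejaculatory duct were higher in males, 30 of them by more than 2 on the log2 scale, with a median difference of 5.16. Sfp24Bb, a seminal fluid protein, gave signals of 2978, 2522 and 2624 in the males, against 99.8, 9.6 and 1.3 in the females (log2 difference 6.44 ± 0.68, adjusted p = 0.000136). Mst57Dc, an accessory gland product, gave 2583, 2805 and 2292 in the males, against 111, 3.9 and 2 in the females (6.44 ± 0.74, adjusted p = 0.000221). In both, female replicate 1 was many times above the other females and still far below every male. Acp53C14b, a seminal protein of the accessory gland, gave 5017, 5699.8 and 4055 in the males, against 336, 25.5 and 2.6 in the females (6.43 ± 0.99, adjusted p = 0.00107), and EbpII, an ejaculatory bulb protein, gave 7883, 8157 and 5763 in the males, against 523, 67.2 and 10 in the females (6.21 ± 0.97, adjusted p = 0.00118). Acp98AB and Acp53C14a, accessory gland products, gave 5688, 6585 and 4615 in the males, against 464, 36.7 and 2.4 in the females (6.35 ± 1.07) and 4807, 5499 and 4278 in the males, against 457, 28.1 and 3.6 in the females (6.21 ± 1.06). The serpins Spn77Bb (6521, 6661 and 4848 in the males, against 363, 47.6 and 2.6 in the females) and Spn28F (2657, 2724 and 2326 in the males, against 155, 7 and 5.3 in the females), members of a family of protease inhibitors, and the uncharacterised CG17376 (4008, 4398 and 3495 in the males, against 157, 7.2 and 4.4 in the females) and CG2127 (3112, 3127 and 2579.5 in the males, against 147, 21.5 and 2.8 in the females) belonged to the same range. CG17376 had the largest male excess of any gene, 6.74 ± 0.79, adjusted p = 0.000243. Without female replicate 1 the differences of the 12 most male-biased genes lay between 6.88 and 7.84, against 6.10 to 6.74 with it, so the size of the male excess, though not its call, rested in part on that array. The smallest excess of the group was that of EbpIII, a further ejaculatory bulb protein, with 6234, 6535 and 5037 in the males, against 4641, 2905 and 3921 in the females (0.65 ± 0.19, adjusted p = 0.0277).

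Testis and sperm genes were higher in males in 45 of 48 cases and lower in none, with a median log2 difference of 3.25. S-Lap7, a leucyl aminopeptidase of sperm, gave 3489, 3723 and 2709.9 in the males, against 115, 14.9 and 1.5 in the females (6.54 ± 0.70, adjusted p = 0.00015). Mst84Db and Mst84Dc, structural proteins of the sperm tail, gave 4643, 5483 and 3869 in the males, against 176, 40.2 and 18.2 in the females, and 4255, 5109.9 and 4060.2 in the males, against 194, 37.1 and 23.1 in the females (log2 differences 6.13 ± 0.58 and 5.99 ± 0.57). The Y chromosome is needed for sperm motility and carries few genes. Of the 7 measured genes on the list of Y-linked genes 5 were higher in males, though their signals were low. Pp1-Y2, a protein phosphatase, gave 72.9, 94.8 and 75.3 in the males, against 15.4, 4.7 and 5.9 in the females (2.22 ± 0.25, adjusted p = 0.000182). kl-5, a dynein heavy chain of the sperm flagellum, gave 17.8, 21.4 and 14.8 in the males, against 8.3, 0.7 and 1.6 in the females (1.00 ± 0.22, adjusted p = 0.00713). ARY, an aldehyde reductase, gave 28.1, 37.1 and 22.5 in the males, against 8.7, 3.3 and 1.5 in the females (1.35 ± 0.23). Female replicate 1 was the highest female for each of these 3, and the test on linear signals used in the study's methods called 1 of the 7.

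Duplicated genes of the proteasome were higher in males while most of the general subunits were lower. The testis of Drosophila has its own proteasome subunits, and all 13 measured paralogs were higher in males, with a median of 2.55, while 19 of the 26 subunits of the general proteasome were lower in males and none higher, with a median of -0.45. Of the 26, 13 were lower without male replicate 1 or 2, and 7 in the test of the study's methods on linear signals, which asks for a fold over 1.5. Prosbeta5R1 gave 257, 296 and 210.2 in the males, against 8.7, 0.9 and 0.8 in the females (4.17 ± 0.25, adjusted p = 9.55e-06). Prosalpha6T, the testis form of a subunit of the barrel, gave 204, 203 and 209.7 in the males, against 6.5, 2.4 and 1.4 in the females (3.87 ± 0.19, adjusted p = 4.61e-06), whereas Prosalpha6, its general form, gave 259, 272 and 324 in the males, against 583, 689.9 and 567 in the females (-1.08 ± 0.13, adjusted p = 0.000236). Prosalpha4, another general subunit, gave 399, 359.5 and 438 in the males, against 819.6, 766 and 650.3 in the females (-0.88 ± 0.12). Rpn12R and Rpn12, of the regulatory particle, parted in the same way, with 323, 323 and 289 in the males, against 28.5, 13.9 and 12.4 in the females for Rpn12R and 438, 355 and 462 in the males, against 721, 823 and 723 in the females for Rpn12 (log2 differences 3.47 ± 0.21 and -0.84 ± 0.12).

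The respiratory chain showed the male excess of its duplicates. All 19 measured paralogs of respiratory chain subunits whose symbols end in L were higher in males, with a median of 2.90. COX7AL, a paralog of a cytochrome c oxidase subunit, gave 508, 562 and 465 in the males, against 6.3, 2.8 and 0.9 in the females (5.14 ± 0.18, adjusted p = 1.99e-06), and COX4L, another such paralog, gave 903, 1016 and 802 in the males, against 34.5, 32.4 and 19.8 in the females (4.52 ± 0.17, adjusted p = 2.75e-06). SdhBL, a paralog of the iron-sulfur subunit of succinate dehydrogenase, gave 298, 311 and 287 in the males, against 24, 2.8 and 2.5 in the females (4.00 ± 0.35, adjusted p = 4.85e-05). All 12 measured paralogs of tricarboxylic acid (TCA) cycle enzymes noted as testis-expressed were higher in males as well, with a median of 3.17. This last list came from names given with the study, partly on these samples, and is no independent evidence of direction. CG14740, the highest of it, gave 653, 710.4 and 494 in the males, against 30.2, 6.2 and 23.4 in the females (4.40 ± 0.31, adjusted p = 1.81e-05), and CG3483 gave 339.5, 380.2 and 302 in the males, against 28.4, 14.4 and 6.2 in the females (3.73 ± 0.28, adjusted p = 2.47e-05). In contrast the 55 subunits of the general respiratory chain and ATP synthase were seldom called. Only 3 were called, all higher in males, and the median of 0.20 became -0.02 when arrays were centred on their medians, where 1 was called higher and 2 lower. After quantile normalization 11 were higher and 1 lower. UQCR-Q, a subunit of complex III, gave 966, 1149 and 994 in the males, against 726, 587 and 768 in the females (0.58 ± 0.13, adjusted p = 0.00803), which is the largest of the 3. ND-13A, of complex I, gave 3365, 3376 and 3242 in the males, against 2619, 1814 and 2439 in the females (0.55 ± 0.15), and SdhD, the membrane anchor of complex II, 2165, 2328 and 1998 in the males, against 1753, 1329.6 and 1687 in the females (0.45 ± 0.13). Without male replicate 1 or 2 there was 1 call among the 55.

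Mitochondrial chaperones carried the same contrast within 1 family. The paralogs Hsp60B, Hsp60C and Hsp60D, the first of which is needed for sperm to separate, were high in males, with 1259.5, 1265 and 1118 in the males, against 57.6, 12.4 and 4 in the females for Hsp60C (5.37 ± 0.47, adjusted p = 5.09e-05), 884, 883 and 681 in the males, against 56.4, 23.7 and 27.6 in the females for Hsp60B (4.18 ± 0.25, adjusted p = 9.46e-06) and 258, 346 and 218 in the males, against 23.4, 2.9 and 30.6 in the females for Hsp60D (3.34 ± 0.39, adjusted p = 0.000233). Hsp60A, the general chaperonin, gave 1437, 1307 and 1867 in the males, against 2157, 2064 and 2086 in the females (-0.47 ± 0.14, adjusted p = 0.0302). CG11267, its partner Hsp10, gave 621, 650.1 and 853 in the males, against 1091, 1277 and 1203 in the females (-0.75 ± 0.14, adjusted p = 0.00295), with every male below every female. Among 16 mitochondrial chaperones and proteases 8 were higher and 3 lower in males. Phb1, prohibitin of the inner membrane, was the third of those lower (1040.2, 1026 and 1193 in the males, against 1385, 1321 and 1285 in the females; -0.29 ± 0.10, adjusted p = 0.0499). Of these 3 the calls of Hsp60A and Phb1 were lost when any 1 female array, or male replicate 1 or 2, was left out, and with median centring 5 of the 16 were lower.

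Yolk and eggshell genes made up the largest differences of all. The yolk proteins, made in the female fat body and follicle cells, gave 17.9, 1.5 and 1.4 in the males, against 8124, 8679.8 and 8476 in the females, for Yp1 (-8.94 ± 0.29, adjusted p = 1.92e-06), and 21.1, 1.9 and 3.9 in the males, against 8603, 9562 and 8883 in the females, for Yp2 (-8.89 ± 0.30, adjusted p = 1.92e-06). yl, the receptor by which the oocyte takes up yolk, gave 2.2, 5.5 and 1.8 in the males, against 877, 1387 and 952 in the females (-6.18 ± 0.20, adjusted p = 1.92e-06), and all 4 yolk genes were lower in males. Of 17 genes of the chorion and vitelline membrane, the layers of the eggshell, 16 were lower in males, all by more than 2, with a median of -7.05. The remaining one was pip, a sulfotransferase of ventral follicle cells (39, 46.6 and 64.3 in the males, against 56, 31.3 and 55.3 in the females; 0.07 ± 0.25, adjusted p = 0.862). Cp19, a chorion protein whose gene is amplified in follicle cells, gave 2.1, 2.2 and 1.2 in the males, against 5057, 5414 and 4656 in the females (-8.55 ± 0.11, adjusted p = 2.02e-08). Cp16 and Cp15 of the same gene cluster gave 3.4, 5.4 and 2.2 in the males, against 4556, 5207 and 4445 in the females, and 16.2, 25.6 and 13.4 in the males, against 6351, 8773 and 6454 in the females (log2 differences -8.28 ± 0.12 and -7.91 ± 0.18). Cp38 and Cp36, the major chorion proteins of the X-linked cluster, had differences of -8.05 ± 0.26 and -7.60 ± 0.36, and Cp18 one of -7.54 ± 0.35. The vitelline membrane genes Vm26Aa (50.8, 32.1 and 20.2 in the males, against 6769, 7253 and 8052 in the females) and Vm34Ca (-7.63 ± 0.41) followed them. Male signals of the eggshell genes named here, pip aside, lay between 1.2 and 54.6 units, where the scale understates differences.

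Genes of the female germline and of cell division were lower in males almost without exception. Of 36 genes of oogenesis and maternal RNA, 32 were lower in males and 2 higher, with a median of -2.66. osk, whose RNA is placed at the posterior of the oocyte and founds the germ plasm, gave 6.6, 2.3 and 1.6 in the males, against 1731, 2714 and 2262 in the females (-7.21 ± 0.20, adjusted p = 1.20e-06). orb, an RNA-binding regulator of maternal translation, gave 10, 13.9 and 9.6 in the males, against 952, 1191 and 1122 in the females (-5.59 ± 0.14, adjusted p = 7.45e-07), and otu, needed for germ cells to form an oocyte, gave 15.4, 14.8 and 13.2 in the males, against 875, 1275 and 1079 in the females (-5.37 ± 0.15, adjusted p = 1.32e-06). dhd, a thioredoxin of the egg, gave 31.8, 12 and 5.9 in the males, against 5392, 6497 and 5854 in the females (-7.82 ± 0.29, adjusted p = 2.39e-06). In most of these genes female replicate 2 was the highest female, as it was in the summed germline markers. The 2 exceptions were exu, which acts in placing bicoid RNA in the egg, and bgcn, a gene of germline stem cell daughters in both sexes. bgcn gave 83.5, 83 and 72.6 in the males, against 20.7, 25.7 and 13.3 in the females (1.55 ± 0.21, adjusted p = 0.000505). exu has 2 probe sets, and they differed: the brighter gave 2266, 2485 and 1953 in the males, against 118, 33.2 and 22.4 in the females (5.26 ± 0.44, adjusted p = 3.96e-05), whereas the other gave 961, 1009.8 and 771 in the males, against 748, 1373 and 799 in the females (-0.05 ± 0.23, adjusted p = 0.903) and overlapped between the sexes. In Drosophila exu RNA ends differently in testis and ovary, and which ends each set of probes covers was not examined.

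All 20 measured genes of DNA replication and the cell cycle were lower in males, with a median of -3.15. CycB, the mitotic cyclin B, gave 27.3, 20.5 and 38.7 in the males, against 3058, 3973 and 3079.9 in the females (-6.40 ± 0.18, adjusted p = 1.32e-06). Mcm5, of the replicative helicase, gave 10.6, 22 and 7.7 in the males, against 369, 711 and 389 in the females (-4.30 ± 0.30, adjusted p = 1.70e-05), and CycE, which opens S phase, gave 5.6, 11.3 and 3 in the males, against 196, 359 and 214 in the females (-3.85 ± 0.28, adjusted p = 1.89e-05). Both histone genes on the list fell with them, BigH1, the linker histone of the early embryo, with 21.3, 36.8 and 31.2 in the males, against 300.2, 484 and 347 in the females (-3.22 ± 0.22), and His2Av, the H2A variant, with 279.7, 312 and 331 in the males, against 973, 1624 and 1196 in the females (-1.97 ± 0.18).

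Ribosomal protein genes were mostly lower in males. Of 41 measured genes of the cytosolic ribosome 25 were lower in males, with a median for the group of -0.40, and 7 were higher. The test on linear signals called 14 lower. The higher ones were led by RpL10Aa (501, 557 and 489.7 in the males, against 35, 29.7 and 6.6 in the females; 4.01 ± 0.33, adjusted p = 3.68e-05), a duplicate of RpL10Ab, by RpS28-like (113, 115 and 115 in the males, against 1.7, 9.2 and 4.2 in the females; 2.94 ± 0.22) and by RpS19b (192, 227 and 212 in the males, against 23.5, 15.9 and 26.3 in the females; 2.74 ± 0.18). Among the lower ones, RpLP0-like, which resembles the stalk protein RpLP0, gave 82.8, 63.5 and 79 in the males, against 313, 313 and 305 in the females (-1.90 ± 0.13), and RpL34a gave 588, 528 and 618 in the males, against 1358, 1659 and 1459 in the females (-1.35 ± 0.11).

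Genes of the mitochondrial ribosome were lower in males as a group. Of 71 genes 47 were lower in males and none higher, and the median was -0.49. Leaving out single arrays gave 37 to 46 lower, centring on the median 63, quantile normalization 36 and the test on linear signals 30. mRpS23 gave 86.8, 76.1 and 67.1 in the males, against 146, 212 and 173 in the females (-1.09 ± 0.17, adjusted p = 0.00112), mRpS29 105, 99.4 and 82.4 in the males, against 239.8, 202 and 182 in the females (-1.03 ± 0.15, adjusted p = 0.000764) and mRpL1 119, 104 and 135 in the males, against 223, 268 and 270.3 in the females (-1.02 ± 0.14, adjusted p = 0.000556). tko itself, the mutated member of the small subunit, gave 315, 257 and 358 in the males, against 545, 466 and 467 in the females (-0.66 ± 0.14, adjusted p = 0.00579), so every male lay below every female. Its X-linkage gives males 1 mutant copy and females 2, and the part of copy number in this difference was not tested. The probe set cannot tell the mutant from the wild-type transcript.

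**Figure D3:**
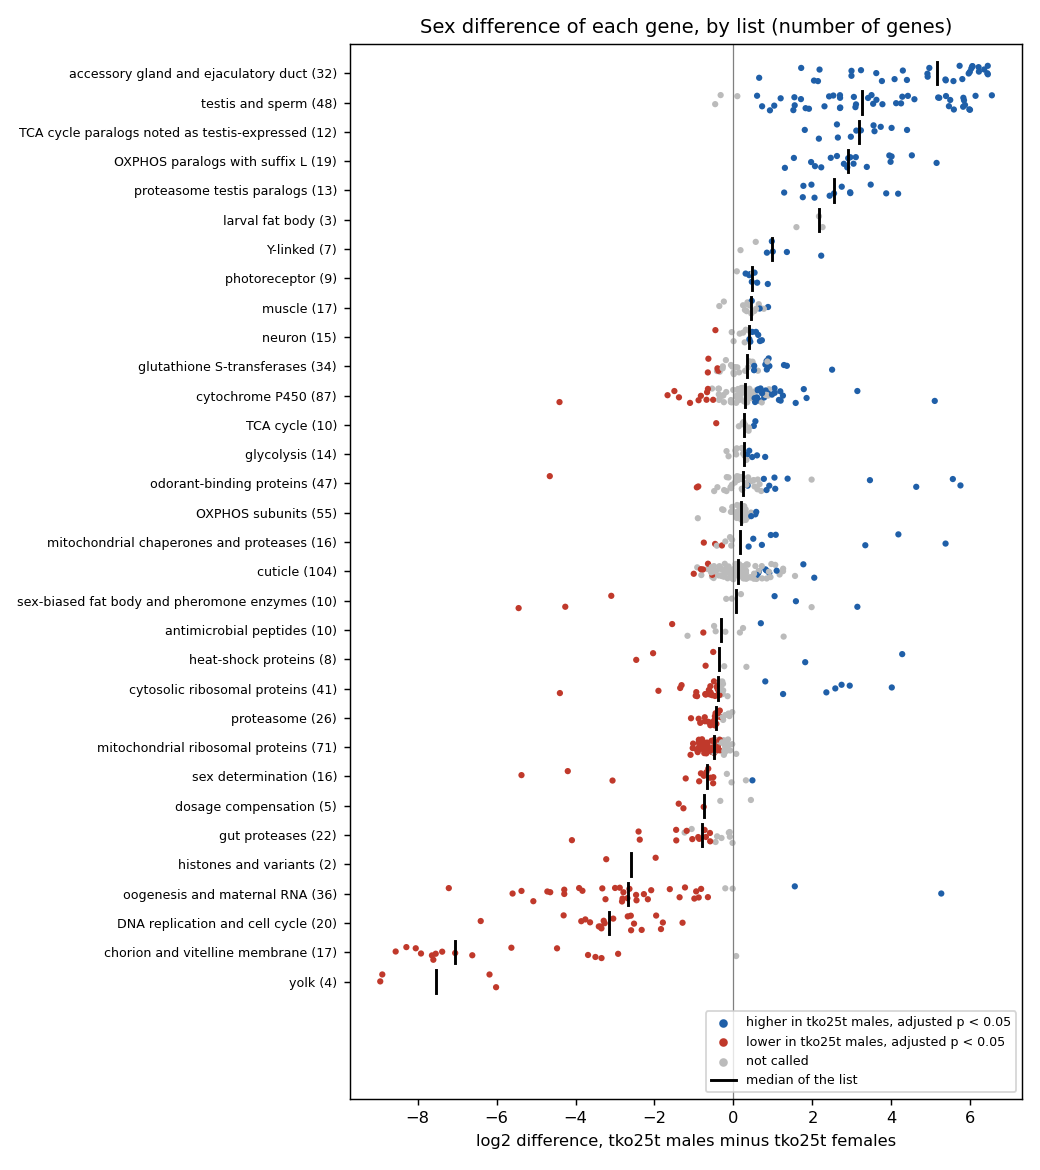
Log2 difference, tko25t males minus tko25t females, of each gene in 32 groups (number of genes in parentheses), ordered by the median (black bar), with genes called higher in males in blue, lower in males in red and the rest in grey. Accessory gland, testis and the testis paralogs lie at the top, yolk, eggshell, cell cycle and maternal genes at the bottom, and the respiratory chain subunits (median 0.20) and proteasome (-0.45) near 0.

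Within the sex determination pathway the probe sets of a gene could part. dsx had 2 probe sets that went opposite ways. The first gave 12.4, 22.6 and 7.6 in the males, against 196, 181 and 219 in the females (-3.06 ± 0.23, adjusted p = 2.57e-05), and the second gave 152, 159 and 203 in the males, against 35.3, 14.8 and 28.5 in the females (2.30 ± 0.24, adjusted p = 0.000129), in both cases with no overlap between the sexes. dsx is known to end in different exons in males and females, and which exons each set of probes covers was not examined. Sxl, the master switch, had 3 probe sets. The brightest gave 104, 91.6 and 119.8 in the males, against 159, 209 and 186 in the females (-0.75 ± 0.15, adjusted p = 0.00449), another gave 107, 104 and 125 in the males, against 86.3, 69.8 and 75.4 in the females (0.47 ± 0.15, adjusted p = 0.0331), and the third overlapped between the sexes (26.7, 33.4 and 22.1 in the males, against 31.2, 38.8 and 28.5 in the females). tra, which Sex-lethal splices, gave 101, 82.2 and 99 in the males, against 172, 189.9 and 181 in the females (-0.87 ± 0.13, adjusted p = 0.00087), and its partner tra2 gave 165, 189 and 170.3 in the males, against 250.1, 322 and 267 in the females (-0.64 ± 0.13, adjusted p = 0.00435). fru, the switch for male courtship in neurons, gave 112, 83.2 and 107 in the males, against 68.2, 70.5 and 66.6 in the females in its brightest probe set (0.48 ± 0.16, adjusted p = 0.04), and none of its other 6 probe sets was called. The call of fru was lost when any array but male replicate 2 was left out, in the fit over 12 arrays and with median centring.

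Of the 16 genes on the sex determination list 12 were lower in males and fru alone higher, with a median of -0.66. The largest differences in this list were those of genes that act in the female germline, otu (above) and ovo, a transcription factor, with 42.8, 34.9 and 53.6 in the males, against 787, 1193 and 1043 in the females (-4.20 ± 0.19, adjusted p = 3.58e-06), besides dsx. The helix-loop-helix gene da, which is also loaded into eggs, gave 223, 229 and 256 in the males, against 449, 700.3 and 557 in the females (-1.21 ± 0.16, adjusted p = 0.000501), and emc, its inhibitor, gave 377, 347 and 411 in the males, against 589, 537 and 593 in the females (-0.59 ± 0.10, adjusted p = 0.00226). gro, a corepressor (97.4, 111 and 104 in the males, against 146, 162 and 151 in the females; -0.51 ± 0.12), fl(2)d (152, 137 and 115 in the males, against 209, 231 and 227 in the females; -0.69 ± 0.13) and vir (22.1, 46 and 41.8 in the males, against 72.5, 66.2 and 76.3 in the females; -0.82 ± 0.24), both needed for Sex-lethal splicing, and ix, a partner of doublesex (61.9, 69.9 and 50 in the males, against 80.6, 105 and 88.8 in the females; -0.51 ± 0.17), were lower in males as well. her (33.4, 31.5 and 39.4 in the males, against 23.3, 23.9 and 29.9 in the females; 0.31 ± 0.19), sc (18.9, 11.4 and 8.1 in the males, against 16.2, 13.4 and 10.4 in the females; -0.05 ± 0.21) and dpn (3.5, 2 and 2.6 in the males, against 6.6, 4.5 and 2.5 in the females; -0.17 ± 0.14) did not pass the test, and the last 2 overlapped between the sexes. The calls of vir and ix did not survive leaving out some single arrays, among them female replicate 3 and male replicate 1 for each.

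None of the 5 measured dosage compensation genes was called higher in males. msl-2, the subunit that is confined to males as a protein, gave 57.9, 43 and 53.6 in the males, against 36.1, 29.6 and 38.7 in the females, with no overlap but 0.44 ± 0.19, adjusted p = 0.103. Of the other subunits 3 were called lower in males, msl-3 with 40.5, 35 and 36.5 in the males, against 97.9, 135 and 119 in the females (-1.39 ± 0.17, adjusted p = 0.000301), mof, the histone acetyltransferase, with 44.6, 32.1 and 37.3 in the males, against 87.8, 125 and 112 in the females (-1.27 ± 0.19, adjusted p = 0.000898) and msl-1 with 38.4, 46.3 and 41.8 in the males, against 65.4, 96.2 and 77.8 in the females (-0.75 ± 0.18, adjusted p = 0.0118). mle, the helicase, gave 46.1, 45 and 38.7 in the males, against 58, 57.7 and 56.6 in the females (-0.33 ± 0.16, adjusted p = 0.145) and did not pass the test. A call of mle was gained under median centring and quantile normalization. The roX RNAs were not analysed here.

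The X chromosome carried fewer male-biased and more female-biased genes than the autosomes. Of 1873 X-linked genes 17.6% were higher in males and 40.7% lower, against 23.2% and 29.3% of 10014 autosomal genes. Genes higher in males by more than 2 made up 7.05% of X-linked and 10.6% of autosomal genes, and genes lower by more than 2 made up 5.87% and 3.33%. Among the X and the autosomes the left arm of chromosome 2 had the highest share of male-biased genes, 25.9%, and none of the 65 genes of chromosome 4 differed by more than 2 in either direction. The median log2 level of X-linked genes minus that of autosomal genes was -0.25, -0.29 and -0.29 in the males, against 0.14, 0.28 and 0.21 in the females, so the sexes did not overlap (two-sided exact permutation test, p = 0.1, the smallest that 3 against 3 arrays allow). Female replicate 1, with the male transcripts, was the lowest female. Among genes whose mean signal over the 6 tko25t arrays was above the median, this difference was -0.37 ± 0.04 in males and 0.13 ± 0.07 in females (SD, n = 3 each). A gene limited to 1 sex can pass this filter through that sex and lie at the floor in the other. The median log2 difference between the sexes was -0.25 over X-linked genes and -0.03 over autosomal genes. Germline transcripts are included in these values, and their share in them was not tested.

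**Figure D4:**
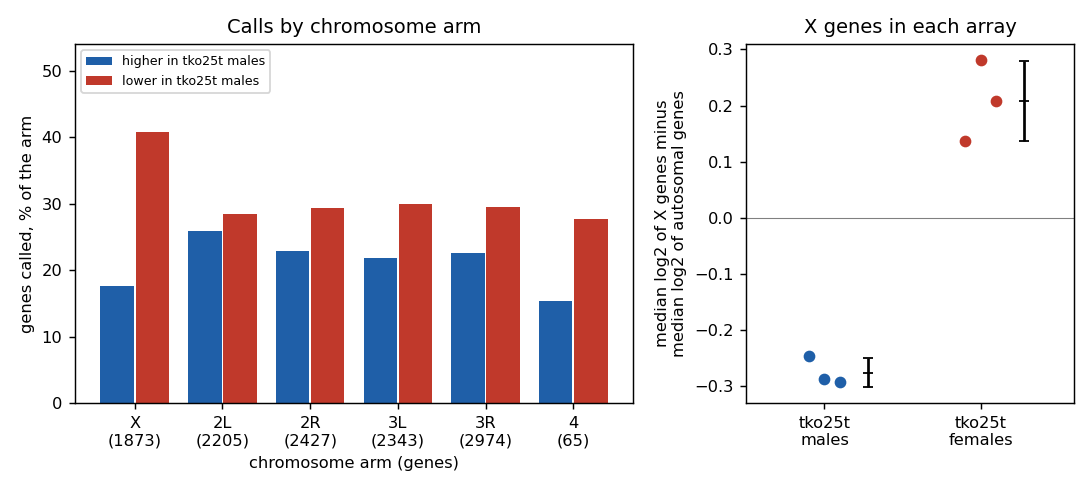
Left, percentage of the genes of each chromosome arm (number of genes in parentheses) called higher (blue) or lower (red) in tko25t males. Right, median log2 signal of X-linked minus autosomal genes in each array, with tko25t males left of tko25t females and the mean ± SD beside the 3 points of each. The X has the highest share lower in males (40.7%), and the males (-0.29 to -0.25) lie below the females (0.14 to 0.28).

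Some pheromone and fat body enzymes differed widely between the sexes. Fad2, the female desaturase that makes the dienes of the courtship pheromone, gave 22.6, 30.2 and 44.4 in the males, against 1563, 1757 and 2341 in the females (-5.44 ± 0.21, adjusted p = 2.80e-06), and eloF, the female elongase of the same pathway, gave 95.3, 115 and 100.2 in the males, against 813, 964 and 1162 in the females (-3.09 ± 0.15, adjusted p = 3.95e-06). fit, a female fat body gene, gave 83.8, 46.3 and 6.5 in the males, against 765, 921 and 957 in the females (-4.26 ± 0.52, adjusted p = 0.00031), and its male signals spread more than its female ones. On the male side, Cyp4d21, also called sex-specific enzyme 1, gave 557, 369 and 197 in the males, against 36, 28 and 23.7 in the females (3.14 ± 0.34, adjusted p = 0.000143), sxe2, a lipase, gave 188, 267 and 129 in the males, against 59.8, 49.8 and 54.8 in the females (1.58 ± 0.24, adjusted p = 0.00102), and bond, an elongase with a role in male pheromone and fertility, gave 770.3, 644 and 659.5 in the males, against 458, 235 and 331 in the females (1.04 ± 0.22, adjusted p = 0.0055). Of the 10 genes on the list 3 were higher and 3 lower in males, a share of calls near that of all genes (53.3%).

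Among cytochromes P450, the oxidases of hormone, pheromone and toxin metabolism, 24 of 87 were higher and 11 lower in males, which is close to the share of all genes for the higher ones (22.3%), and below it for the lower ones (30.9%). Cyp312a1 gave 619.8, 467 and 432 in the males, against 6.8, 2.4 and 1.4 in the females (5.10 ± 0.21, adjusted p = 2.95e-06) and Cyp313a1 1958, 1343 and 1740.3 in the males, against 595, 353 and 438 in the females (1.85 ± 0.21, adjusted p = 0.000191). Cyp6a19 gave 33.3, 21.8 and 23 in the males, against 667, 980.4 and 722 in the females (-4.41 ± 0.19, adjusted p = 3.27e-06). spo, an ecdysone synthesis enzyme of the ovary and embryo, gave 2.5, 1.2 and 0.6 in the males, against 25, 24.5 and 42 in the females (-1.67 ± 0.21), and Cyp6v1 gave 55.9, 44.5 and 69.2 in the males, against 163, 204 and 171 in the females (-1.50 ± 0.18). Without male replicate 1, 14 of the 87 were higher, and with median centring 17 were lower. Odorant-binding proteins, a family named for the antenna, included transcripts of male-limited signal. Obp51a gave 2353, 2622 and 2267 in the males, against 122, 22.7 and 8.4 in the females (5.75 ± 0.59, adjusted p = 0.000117), Obp56g 5856, 5868 and 4579.8 in the males, against 202, 52.8 and 99.6 in the females (5.55 ± 0.38, adjusted p = 1.52e-05) and Obp56f 409.6, 472 and 483 in the males, against 23.9, 3.7 and 0.7 in the females (4.63 ± 0.36, adjusted p = 2.93e-05), while Obp19c gave 2.2, 14.1 and 3.5 in the males, against 374, 536 and 391 in the females (-4.65 ± 0.27, adjusted p = 8.13e-06). Over the family 11 of 47 were higher, close to the share of all genes (22.3%), and 3 were lower, below the share of all genes (30.9%). The other 2 lower ones were Obp99a (-0.93) and Obp57a (-0.89).

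Digestive proteases were mostly lower in males. Of 22 serine proteases of the gut 13 were lower and none higher, with a median of -0.80, and 8 were lower without female replicate 3. Jon99Fi gave 219, 114 and 33.6 in the males, against 1545, 2693 and 1524 in the females (-4.09 ± 0.53, adjusted p = 0.00044), with the males spread over more than a factor of 6 and still below every female, and Jon65Ai gave 495, 366 and 164 in the males, against 1587, 1898 and 1516 in the females (-2.37 ± 0.34, adjusted p = 0.000785). Ser6 gave 45.7, 44.9 and 40.2 in the males, against 359.5, 235 and 259.8 in the females (-2.40 ± 0.17, adjusted p = 2.05e-05). Heat-shock genes differed gene by gene. Hsp26 and Hsp27, small heat-shock proteins that are also made by nurse cells, gave 318, 454 and 291 in the males, against 1617, 2744 and 1713 in the females (-2.46 ± 0.23, adjusted p = 7.85e-05) and 251, 281 and 231 in the males, against 940.3, 1577 and 838 in the females (-2.04 ± 0.22, adjusted p = 0.000167), and Hsc70-4, the general cytosolic chaperone, gave 3909, 4127 and 3665 in the males, against 5935, 7006 and 6192 in the females (-0.71 ± 0.12, adjusted p = 0.00195). Hsc70-2 gave 415, 393 and 333 in the males, against 22.1, 4.1 and 4 in the females (4.27 ± 0.30, adjusted p = 1.82e-05), and Hsp68, a stress-inducible form, gave 86.2, 159 and 83 in the males, against 18.1, 25.7 and 21.1 in the females (1.82 ± 0.26, adjusted p = 0.000745). Of the 8 genes on the list 2 were higher and 4 lower.

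Antimicrobial peptide genes were seldom called. Of 10 genes Drsl4 was higher in males (634, 685 and 539.5 in the males, against 402, 363 and 367 in the females; 0.69 ± 0.12), and Drs, drosomycin, was lower (1793, 2107 and 1542 in the males, against 3444, 3194 and 2612 in the females; -0.76 ± 0.16). Mtk, metchnikowin, was called lower although the sexes overlapped (121, 278 and 78 in the males, against 727, 479 and 229 in the females; -1.55 ± 0.50, adjusted p = 0.0383), and its call was lost without female replicate 1 or 2 or male replicate 1 or 3. The call of Drs was lost in the limma fit over 12 arrays (adjusted p = 0.199). Glutathione S-transferases, which conjugate toxins, had 10 of 34 genes higher and 4 lower in males, and 4 to 6 higher on leaving out any array but female replicate 1. With median centring 3 were higher and 8 lower. GstD5 gave 129, 162 and 201 in the males, against 45.1, 4.2 and 20.5 in the females (adjusted p = 0.0019) and GstE9 2043, 2190.4 and 2329.5 in the males, against 1391, 549 and 931 in the females (1.28 ± 0.29, adjusted p = 0.0082), both with female replicate 2 lowest. GstE1 gave 1153, 972 and 2046 in the males, against 1004, 287 and 455 in the females, so that female replicate 1 exceeded male replicate 2 (1.35 ± 0.44, adjusted p = 0.0409). Its call was lost with median centring and on leaving out any array but female replicate 1. The lower ones were led by GstZ1 (-0.65), GstT2 (-0.64) and GstO1 (-0.41). Of 104 cuticle genes 9 were higher and 5 lower, well under the shares of all genes. Without female replicate 1 there were 15 higher, without male replicate 2 there were 5, and with median centring 5 were higher and 11 lower. Twdlalpha (89, 73.1 and 66.7 in the males, against 17.9, 8 and 4.8 in the females; 2.05 ± 0.26) and Cpr56F (27.6, 39.7 and 40.9 in the males, against 2.2, 2 and 2.6 in the females; 1.77 ± 0.18) were the highest of them, and Cpr35B (7.6, 14.7 and 9.1 in the males, against 35.7, 30.5 and 30.9 in the females; -1.01 ± 0.20) the lowest. TwdlK gave 56.7, 48.9 and 77.8 in the males, against 15.3, 16.7 and 38.3 in the females (1.09 ± 0.29). Pcp gave 26.6, 18.3 and 8.6 in the males, against 32.3, 42.8 and 42.2 in the females (-0.83 ± 0.27), and Lcp65Ae 3.6, 1.7 and 1 in the males, against 16.5, 7.5 and 12 in the females (-0.77 ± 0.18). The sexes did not overlap in TwdlK, Pcp or Lcp65Ae. The calls of TwdlK and Pcp were lost without female replicate 2 or male replicate 3, and that of Pcp under further alternatives.

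Genes of muscle, nerve and eye that were called had small differences, and the counts of calls depended on single arrays and on scaling. Of 17 muscle genes 3 were higher in males, with a median of 0.45. bt, a giant protein kinase of muscle, gave 2475, 2354 and 2674 in the males, against 1730, 1286 and 1750.1 in the females (0.66 ± 0.14, adjusted p = 0.00615), and TpnC41C, a troponin C, gave 4216, 3972 and 4603 in the males, against 3377, 1358 and 2702 in the females (0.88 ± 0.30, adjusted p = 0.0488). sls, the fly titin, gave 291, 243 and 260.2 in the males, against 216, 155 and 199.6 in the females (0.46 ± 0.15). Female replicate 2 was the lowest in each, as in the summed muscle markers, and the count was 7 without female replicate 1 and 1 without female replicate 3 or male replicate 1 or 2, as with median centring. Of 9 photoreceptor genes 7 were higher, among them rdgB, a lipid transfer protein of the visual cascade (181, 163 and 219.7 in the males, against 87.4, 90.8 and 114 in the females; 0.87 ± 0.16, adjusted p = 0.00267), inaD, its scaffold protein (174, 220.4 and 180.4 in the males, against 134, 104 and 129 in the females; 0.60 ± 0.15), and rdgC, a rhodopsin phosphatase (74.5, 83.7 and 95.1 in the males, against 57, 53.7 and 52.8 in the females; 0.53 ± 0.16). A second probe set of rdgB was called lower in males. Leaving out any array but male replicate 3 left 3 or 4 of the 7, and median centring left 1. Of 15 neuronal genes 7 were higher and 1 lower. Gad1, which makes GABA, gave 721, 720.3 and 778 in the males, against 513, 373 and 509 in the females (0.67 ± 0.14, adjusted p = 0.00495), Rdl, a GABA receptor, gave 112, 116 and 105 in the males, against 51.6, 60.1 and 79.1 in the females (0.72 ± 0.17, adjusted p = 0.0105), and Sh, a potassium channel, gave 149, 111 and 128 in the males, against 67.4, 73.9 and 98.5 in the females (0.63 ± 0.18), though 1 of its 7 probe sets was called lower. Csp, a chaperone of synaptic vesicles, was lower (237, 223 and 282 in the males, against 365, 321 and 342 in the females; -0.46 ± 0.12). Between 2 and 4 neuronal genes were higher without female replicate 1 or 2 or any 1 male array, and 2 with median centring.

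Few glycolytic and TCA cycle enzymes of general use were called, all with differences below 1. Of 14 glycolytic genes 5 were higher in males, with a median of 0.26. Hex-C, a hexokinase of the fat body, gave 1014, 980.3 and 1019.5 in the males, against 693, 398 and 674 in the females (0.80 ± 0.20, adjusted p = 0.013), Glyp, glycogen phosphorylase, gave 5006, 5485 and 4725 in the males, against 4047, 2569 and 3599.5 in the females (0.60 ± 0.18, adjusted p = 0.0284), and Pfk, phosphofructokinase, gave 1602, 1805 and 1669 in the males, against 1359.8, 982 and 1337 in the females (0.47 ± 0.14, adjusted p = 0.0295). Female replicate 2 was the lowest array in all 3. Without male replicate 1 there was 1 call, without male replicate 2 or female replicate 3 there were 2, and with median centring 1 was higher and 2 lower. Of 10 TCA cycle genes Scsalpha1 (3153, 3562 and 3323 in the males, against 2664, 1783 and 2467 in the females; 0.55 ± 0.16, adjusted p = 0.0255) and Idh (3951, 4209.8 and 3934 in the males, against 3225, 2451 and 2825 in the females; 0.52 ± 0.13, adjusted p = 0.0129) were higher and ScsbetaG (189, 190.4 and 186 in the males, against 300.1, 219 and 265 in the females; -0.44 ± 0.13, adjusted p = 0.0294) lower, and 4 were higher after quantile normalization, 0 with median centring or without female replicate 3, and 1 without any 1 male array.

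Larval fat body transcripts, which persist while larval fat cells remain in the young adult, spread widely within each sex. Lsp2, a larval storage protein, gave 2836, 1932 and 4223 in the males, against 1858, 166 and 771 in the females (2.17 ± 0.75, adjusted p = 0.0508), Fbp1, the storage protein receptor, gave 1718, 738 and 2774 in the males, against 1536, 50.4 and 334 in the females (2.26 ± 1.04, adjusted p = 0.127), and Fbp2 gave 1420.4, 687 and 2248 in the males, against 1700.4, 67.4 and 596 in the females (1.59 ± 1.00, adjusted p = 0.256). None of the 3 was called, although their median of 2.17 was large. Female replicate 1 lay within or next to the male range and female replicate 2 far below it. All 3 were called without female replicate 1, and 1 of them with 4 times the offset, in the fit over 12 arrays, with only the brightest probe sets and in the test on linear signals.

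The sex difference in tko25t flies was then set against that of wild-type flies. In wild type 3829 probe sets (20.4%) were higher in males and 4780 (25.5%) lower, or by gene 25.5% and 32.7%. Of the probe sets higher in tko25t males 2704 were also higher in wild-type males, which is 86.3% of the tko25t and 70.6% of the wild-type calls, and of those lower 3988 were shared, 86.8% and 83.4%. Only 6 were called in opposite directions. A fit with genotype, sex and their interaction over the 12 arrays found 6 probe sets (0.032%) whose sex difference itself differed at an adjusted p below 0.05, against 2138 at an unadjusted p below 0.05. The male excess of more than 6 on the log2 scale was reached by 21 probe sets in tko25t and 69 in wild type, and a female excess of that size by 26 in tko25t and 1 in wild type. Some arrays carried transcripts of the other sex. The follicle cell markers of wild-type males were at 5.92%, 3.45% and 0.570% of the tko25t female mean, against 0.482%, 0.359% and 0.240% in tko25t males. Their yolk protein genes were at 8.8%, 5.2% and 0.59% of that mean. In wild-type females the accessory gland markers were at 3.48%, 2.14% and 0.739% of the tko25t male mean, and the testis markers at 2.23%, 2.11% and 1.26%. The male transcripts of the tko25t females, highest in replicate 1, are given above. The 18S rRNA control probe sets also set the wild-type males apart: the one for the middle of the rRNA gave 268.9, 356.7 and 193.5 in tko25t males, against 189.6, 94.7 and 94.7 in tko25t females, and 4075, 3895 and 4058 in wild-type males, against 111.5, 90.8 and 92.8 in wild-type females. The part of either in the counts and in the differences between genotypes below was not tested.

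Sdic3, of a tandem cluster of near-identical dynein intermediate chain genes of sperm on the X, had the lowest p of the interaction. Its signal was 352, 347 and 302 in tko25t males, against 44.5, 39.3 and 37.9 in tko25t females, and 42.5, 40.7 and 42.1 in wild-type males, against 36.9, 28.3 and 33.4 in wild-type females. Only the tko25t males were high, and the sex differences were 2.73 and 0.27, which differed by 2.46 ± 0.20 (adjusted p = 0.000541). Since the copies of the cluster are nearly the same, which of them was measured is uncertain. RpL37-1, a protein of the large cytosolic subunit, gave 3428, 3252 and 3381 in tko25t males, against 4862, 5231 and 4150.3 in tko25t females, and 1316, 1275 and 1175 in wild-type males, against 4445, 4709 and 4834 in wild-type females. The wild-type males, which had the high 18S rRNA signals, were low in this case, and the difference of 1.39 ± 0.15 had an adjusted p of 0.00485. A probe set of BtbVII, a gene with a BTB domain, gave 57, 96.9 and 73.1 in tko25t males, against 85.4, 89.2 and 100 in tko25t females, and 11.9, 6.2 and 7.9 in wild-type males, against 90.8, 76 and 90.6 in wild-type females (2.01 ± 0.28, adjusted p = 0.0325), whereas the brighter probe set of the gene differed by -0.13 ± 0.30 (adjusted p = 0.906). The other 3 probe sets have no gene symbol in the annotation used. Next in order of p came bcn92 (1.79 ± 0.27, adjusted p = 0.051) and Nop10 (0.93 ± 0.15, adjusted p = 0.0727), of the small nucleolar ribonucleoproteins. In the other direction osk (-2.20 ± 0.34, adjusted p = 0.0625) and CG14605 (-1.24 ± 0.20, adjusted p = 0.0727) came next, and osk gave 102, 82.2 and 41.7 in wild-type males, against 2694, 2631 and 2632 in wild-type females.

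For mitochondrial ribosomal protein genes the fitted sex difference was mostly smaller in tko25t than in wild-type flies, though no gene passed the test of that change, and the wild-type males are the arrays with the high 18S rRNA signals. In wild type 65 of the 71 were lower in males with a median of -0.91, against 47 and -0.49 in tko25t. The sex difference was more positive in tko25t for 68 of 71, with a median shift of 0.38, against 48.0% of all genes and a median of -0.02. For 34 of the 71 the unadjusted p was below 0.05, against 11.9% of all genes, and none passed after adjustment. tko had a sex difference of -0.66 in tko25t and -1.23 in wild type (interaction 0.57 ± 0.19, adjusted p = 0.303). CG11267 had -0.75 in tko25t and -1.81 in wild type (1.06 ± 0.18, adjusted p = 0.0855), and Hsp60A -0.47 in tko25t and -1.24 in wild type (0.77 ± 0.16, adjusted p = 0.146). The eggshell genes shifted the other way, with medians of -7.05 in tko25t and -4.65 in wild type, and 10 of 17 had an unadjusted p below 0.05 but none passed after adjustment. The follicle cell markers in wild-type males, given above, include genes of this same list, among them Cp19, Cp16 and Cp38. They are therefore no separate measure of this shift. For gut proteases the medians were -0.80 in tko25t and -0.24 in wild type, and for accessory gland genes 5.16 in tko25t and 5.46 in wild type. The median shift per gene was -0.34 for gut proteases and -0.36 for accessory gland genes. No gene of either list passed the interaction test after adjustment.

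**Figure D5:**
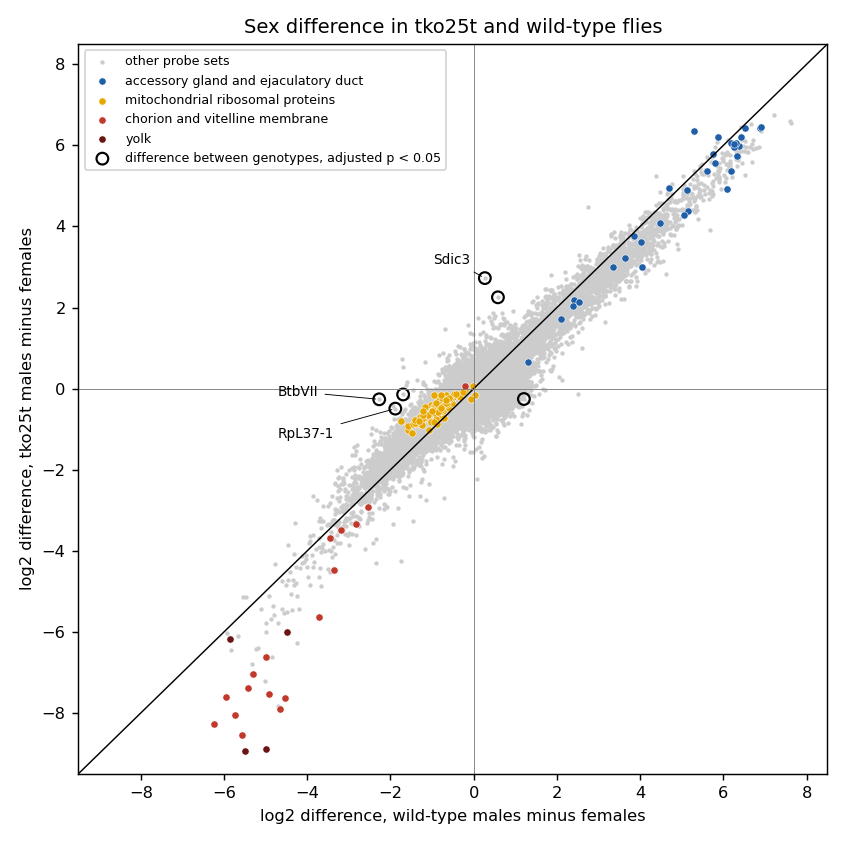
Log2 difference between males and females of each of 18769 probe sets in tko25t flies (vertical axis) and wild-type flies (horizontal axis), with 4 gene groups coloured, the line of equal difference in black, and open circles on the 6 probe sets whose difference itself differed at an adjusted p below 0.05. Eggshell and yolk genes lie below the line (eggshell medians -7.05 in tko25t and -4.65 in wild type), and mitochondrial ribosomal protein genes above it (-0.49 and -0.91).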

How the data were processed

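Whole-fly total RNA was hybridised to 12 arrays, 3 per genotype and sex. The deposited intensity values were made by the authors in GCOS with the MAS5 algorithm, on a linear scale and scaled to a common trimmed mean. Of 18952 probe sets 183 controls were left out, and 18769 were tested without a filter. The signals were turned to log2(signal + 11.6), where 11.6 is the median over arrays of the 25th percentile. limma 3.58.1 (R 4.3.3, lmFit and eBayes with trend) compared the sexes of tko25t flies on their 6 arrays and, over 12 arrays, the interaction of sex and genotype. Adjusted p-values are Benjamini-Hochberg values over all probe sets, called below 0.05. Every ± beside a log2 difference is a standard error with n = 3 arrays per group. Detection calls were not used here, and the number of arrays limits the precision.

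Probe sets were named from the platform's annotation (13646 with 1 symbol, 402 with several, 4721 with none) and 13543 matched a gene of the RefSeq table of the Release 6 assembly, which also gave chromosomes. Where a gene had several probe sets, the brightest over the tko25t arrays stood for it. This choice concerned 1094 genes and can favour a probe set that is high in only 1 sex, as for exu. In simulated data for the comparison of tko25t sexes over 18769 probe sets, a log2 change of 1 was recovered in 31% and one of 2 in 93% of cases, with 3 false calls. Far fewer probe sets were changed in the simulation than were called in the real comparison. The recovered shares therefore need not hold for the real data. The members and gene lists were chosen with earlier results of these data known. Named genes are the 12 largest differences in each direction without overlap, tko, the sex determination and dosage compensation lists, up to 3 called genes in each direction of every other list, and in the interaction the called genes and the 2 next by p in each direction. EbpIII, pip and the larval fat body genes were named after their values were seen. List genes that no single-symbol probe set covered were not analysed here, and 1 gene that the rule names is not reported here. Alternatives were an offset of 4 times or of 0.25 of its size, only the 9384 brightest probe sets, quantile normalization, median centring, a fit over 12 arrays, a SAM-type test on linear signals (s0 = 20, fold over 1.5, false discovery rate 2.5%), the replicate number as a block, and leaving out each array.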

Additional observations from a re-analysis of the deposited data

Results flagged for a closer look

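The sex difference of 6 probe sets differed between tko25t and wild-type flies at an adjusted p below 0.05 (limma, interaction over 12 arrays). Sdic3 was more male-biased in tko25t flies, by 2.46 ± 0.20 on the log2 scale (adjusted p = 0.000541). RpL37-1 was less female-biased in tko25t flies, by 1.39 ± 0.15 (adjusted p = 0.00485), and a probe set of BtbVII by 2.01 ± 0.28 (adjusted p = 0.0325). The other 3 have no gene symbol in the annotation used. One of them gave 348, 318 and 355 in tko25t males, against 355, 423 and 356 in tko25t females, and 201, 208 and 229 in wild-type males, against 753, 819.5 and 588 in wild-type females (difference 1.55 ± 0.18, adjusted p = 0.00675). Another gave 307, 347 and 317 in tko25t males, against 69.1, 60.2 and 48.2 in tko25t females, and 166, 176 and 212 in wild-type males, against 107, 139.9 and 113 in wild-type females (1.67 ± 0.21, adjusted p = 0.0132). The last was low throughout, with 3.4, 3.5 and 3 in tko25t males, against 7.3, 3.7 and 7.9 in tko25t females, and 20.5, 22.8 and 20.6 in wild-type males, against 1.9, 2.8 and 3.3 in wild-type females (-1.46 ± 0.21, adjusted p = 0.0356). The wild-type males, low in RpL37-1, in the probe set of BtbVII and in the first of these 3, were also the arrays with 18S rRNA control signals far above the rest (3895 to 4075 for the middle of the rRNA, against 90.8 to 356.7 in the other 9 arrays), and its part in these differences was not tested.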

How the results depend on the processing

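The counts of 3135 probe sets higher and 4594 lower in tko25t males stayed within 1.5 times under every alternative run, with 2696 to 3213 higher and 3878 to 4503 lower on leaving out single arrays, and 2252 higher and 3502 lower in the SAM-type test. The interaction count of 6 became 12 with 4 times the offset, 13 with only the brightest probe sets and 3 with the replicate block. On leaving out single arrays it ranged from 3 to 32, with 12 without tko25t female replicate 2, 11 without tko25t male replicate 2, 3 without tko25t male replicate 3, 4 or 5 without any 1 wild-type female, and 32 without wild-type male replicate 3. The direction moved as well. In the main fit 5 were more positive and 1 more negative in tko25t. Without wild-type male replicate 3 these were 11 and 21, without tko25t female replicate 2 they were 4 and 8, and with 4 times the offset 5 and 7. The cause was not tested. Of 144 named genes, of which 139 were called, 117 kept their direction and side of the threshold under every alternative that could be computed, and 27 did not, mostly genes with a log2 difference below 1. The difference of sc, which was not called, ranged from -0.22 to 0.094 on leaving out single arrays and turned positive without female replicate 1 (0.033) and without male replicate 3 (0.094). Same-numbered male and female tko25t arrays hardly deviated together (correlations of 0.04, 0.08 and 0.03), so the numbers were not taken to pair the samples, and the replicate block gave 3042 probe sets higher and 4280 lower in tko25t males. Of the lists it moved by over 1.5 times, it called 3 photoreceptor, 2 glycolytic, 5 muscle and 2 larval fat body genes higher, no sex determination gene higher and 1 respiratory chain subunit lower. The SAM-type test, which asks for a fold over 1.5, called 2 photoreceptor, 2 neuronal, 1 glycolytic, 5 muscle and 6 glutathione S-transferase genes higher. It called 6 cytochrome P450, 2 glutathione S-transferase, 2 cuticle and 1 mitochondrial chaperone genes lower. No general respiratory chain subunit or general TCA cycle enzyme was called in either direction by that test. The 19 respiratory chain paralogs and the 12 TCA cycle paralogs were all still called higher. Detection of small differences is limited by 3 arrays per group.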
